A study of Mus musculus with 39 samples.

Results

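Acox2, Acox3, Acoxl, Ehhadh, Hsd17b4, Cat and Abcd3 make up a group of 7 genes of peroxisomal oxidation, out of 18193 genes with a probe set of their own on the arrays. They were followed in lungs of 39 female Crlj:CD1(ICR) mice, 1 array per animal. The genes were chosen by name with earlier results of these data known, Acox2 and Acoxl in particular for opposite differences under permethrin, so their permethrin values are a description and their adjusted p-values only place them in the fit over all genes. A gene is represented by the probe set, among the 11 that the platform annotates to a member alone, with the highest mean log2 signal over all arrays. The mice ate powdered diet with permethrin 10000 ppm, permethrin 5000 ppm, isoniazid 2500 ppm or no added compound, for 14 days (age 12 weeks) or 7 days (age 11 weeks), with 5 animals in each of the 8 groups except 4 at permethrin 10000 ppm for 14 days. Permethrin is a pyrethroid insecticide. Isoniazid, used against tuberculosis, served as the tumour-inducing control compound according to the labels. The mice are an outbred stock with no labelled mutation or transgene, and duration and age change together.

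Peroxisomes shorten fatty acids that mitochondria handle poorly. An acyl-CoA oxidase takes the electrons of the initial step to oxygen and gives hydrogen peroxide, a bifunctional enzyme hydrates and dehydrogenates the product, and catalase removes the peroxide. In rodent liver many of these genes are induced together through the nuclear receptor PPAR-alpha, and in lung, peroxisomes are abundant in alveolar type 2 cells and club cells.

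Acox2 encodes the oxidase for bile acid intermediates, and Acoxl encodes an acyl-CoA oxidase-like protein whose substrate is not well established. The stretches of 250 bases before their transcription starts are shown because these genes moved in opposite directions. They come from RefSeq (build GRCm38.p6), read 5′ to 3′ on the gene's strand. The Acox2 stretch lies before the more upstream of its 2 listed starts, at chr14:8259020-8259269 on the minus strand, and the Acoxl stretch at chr2:127854378-127854627 on the plus strand. Capitals mark a match to TGACNNNGC, the core of the antioxidant response element bound by NRF2.
Acox2: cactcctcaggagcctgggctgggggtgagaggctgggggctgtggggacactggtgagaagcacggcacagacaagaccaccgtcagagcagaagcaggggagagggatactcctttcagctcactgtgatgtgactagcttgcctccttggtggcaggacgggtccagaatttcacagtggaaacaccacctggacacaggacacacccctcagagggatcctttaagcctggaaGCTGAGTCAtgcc
Acoxl: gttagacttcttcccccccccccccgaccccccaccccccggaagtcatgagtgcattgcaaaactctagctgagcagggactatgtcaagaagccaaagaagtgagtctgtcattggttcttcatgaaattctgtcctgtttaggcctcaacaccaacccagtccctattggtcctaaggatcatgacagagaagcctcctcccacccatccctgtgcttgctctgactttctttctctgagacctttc
The match in Acox2 is on the opposite strand, 13 to 5 bases before the start (chr14:8259024-8259032), and the same site falls in the window of the other listed Acox2 start. It overlaps TGAGTCA, the AP-1 site, a motif added after the match was seen. Acoxl has no match in this window. Both strands of the same window were searched in all 32851 listed mouse promoters, of which 10.2% held the antioxidant core and 4.46% the AP-1 site. An exact match to the consensus DR1 form of the PPAR response element (both strands) occurred in 0.0335% of promoters and in none of the 8 listed promoters of the 6 members found in the table. The single element AGGTCA, in 14.0% of promoters, matched in Cat, 204 to 199 bases before its start, and the antioxidant core also matched in Ehhadh, 165 to 157 bases before its start, on the gene's own strand. These are letter matches and not sites shown to be bound.

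Signals are MAS5 intensities after quantile normalization, and log2 fold changes come from limma, with p-values adjusted by the Benjamini-Hochberg method over 13020 genes and a threshold of 0.05. All 7 genes passed the filter on dim probe sets, a mean signal of 10.8. Acox3 stood closest to it. On 7 arrays, all from 14-day animals, the 3′ over 5′ log2 ratio of the Gapdh control probe sets, a sign of RNA integrity, exceeded 0.7. They came from permethrin 10000 ppm (replicate 3), permethrin 5000 ppm (replicates 4 and 5), isoniazid (replicates 3 and 5) and control (replicates 4 and 5). Closest below the limit were arrays of 7-day animals, control replicate 1 (0.696) and permethrin 10000 ppm replicate 5 (0.637). Pearson's r between arrays ran from 0.917 to 0.983, with no identical pair. The group means of the alveolar type 1, alveolar type 2 and club cell marker lists were 10.91 or more on the log2 scale, and those of the cardiac muscle, adipocyte, brown fat and liver lists 8.10 or less. The latter lists include genes below the filter, and their single genes averaged from 0.50 (Lep) to 10.84 (Actc1), so the list means do not measure the amount of each tissue.

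Averaged over both times, Acox2 rose at both permethrin doses, by more than any other member changed. The mean log2 fold change over both times was 1.32 ± 0.17 (SE) at 10000 ppm, a fold of 2.49, and 0.92 ± 0.16 at 5000 ppm, a fold of 1.90. Under isoniazid the log2 difference was 0.32 ± 0.16 with a 95% interval of -0.01 to 0.66, and it did not pass the threshold. In bulk lung, a difference in the number of cells of a type and one in RNA per cell cannot be told apart.

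At 14 days the Acox2 signal was 108, 152, 87.2 and 117 in the 4 lungs at permethrin 10000 ppm, against 58.4, 42.8, 35.2, 66.9 and 26.7 in control lungs. All lungs at the high dose lay above all controls, as did 1.21% of tested genes, and the log2 fold change was 1.39 ± 0.25 (adjusted p = 0.00194, and 0.154 with only the compared groups in the fit). In lungs at permethrin 5000 ppm for 14 days it was 83.9, 98.6, 95.1, 129.5 and 58.9, with replicate 5 between controls. The log2 fold change was 1.05 ± 0.23 with an adjusted p of 0.0492 in limma, at the edge of the threshold, and 16 of 22 alternative settings placed it beyond 0.05. Isoniazid lungs at 14 days had 55.8, 69.0, 57.7, 42.9 and 92.5, overlapping the controls, with a log2 difference of 0.50 ± 0.23 (adjusted p = 0.81 in limma).

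At 7 days the Acox2 signal was 115, 109.9, 121, 137 and 153 at permethrin 10000 ppm, against 71.9, 51.6, 53.9, 45.8 and 46.3 in controls, again without overlap, which held for 0.868% of tested genes in that direction. The log2 fold change was 1.25 ± 0.23 (adjusted p = 0.00307). Lungs at permethrin 5000 ppm for 7 days had 91.5, 82.1, 117, 86.8 and 87.8, all above the controls (0.399% of tested genes), with a log2 difference of 0.80 ± 0.23 that did not pass the threshold (adjusted p = 0.686 in limma). Isoniazid lungs at 7 days had 61.0, 53.2, 87.5, 74.1 and 33.4, spread below and above the controls, and the log2 difference was 0.15 ± 0.23, with single animals moving it between 0.00 (without isoniazid replicate 3) and 0.35 (without isoniazid replicate 5). Replicate 5 had the lowest Acox2 signal of that group and replicate 3 the highest.

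Over both times the adjusted p for Acox2 was 2.5e-06 at 10000 ppm and 0.00171 at 5000 ppm in limma. All 9 lungs at 10000 ppm had more Acox2 signal than any of the 10 controls, and all 10 lungs at 5000 ppm lay above the control mean of their time. The share of all tested genes past the threshold was 0.499% at 10000 ppm and 0.223% at 5000 ppm, and 0.192% of genes had every 10000 ppm lung above every control. Set directly against 5000 ppm, 10000 ppm differed by 0.39 ± 0.17 on the log2 scale (adjusted p = 0.999 in limma), with an interval of 0.05 to 0.74, where 0.00768% of genes passed. Set against isoniazid, 10000 ppm gave a log2 fold change of 0.99 ± 0.17 (adjusted p = 0.000521), where 0.353% of genes passed. These comparisons share animals and are not separate evidence. In order, the group means of log2 signal were 6.98 ± 0.20 (SD) at 10000 ppm for 7 days, 6.83 ± 0.33 at 10000 ppm for 14 days, 6.53 ± 0.20 at 5000 ppm for 7 days, 6.50 ± 0.41 at 5000 ppm for 14 days, 5.94 ± 0.41 under isoniazid for 14 days, 5.88 ± 0.53 under isoniazid for 7 days, 5.73 ± 0.26 in 7-day controls and 5.45 ± 0.54 in 14-day controls. Neighbours in this order differ by less than the sum of their SDs. The change of the effect, 14 minus 7 days, was 0.14 ± 0.34 at 10000 ppm and 0.25 ± 0.33 at 5000 ppm, and no gene passed in either.

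**Figure D1:**
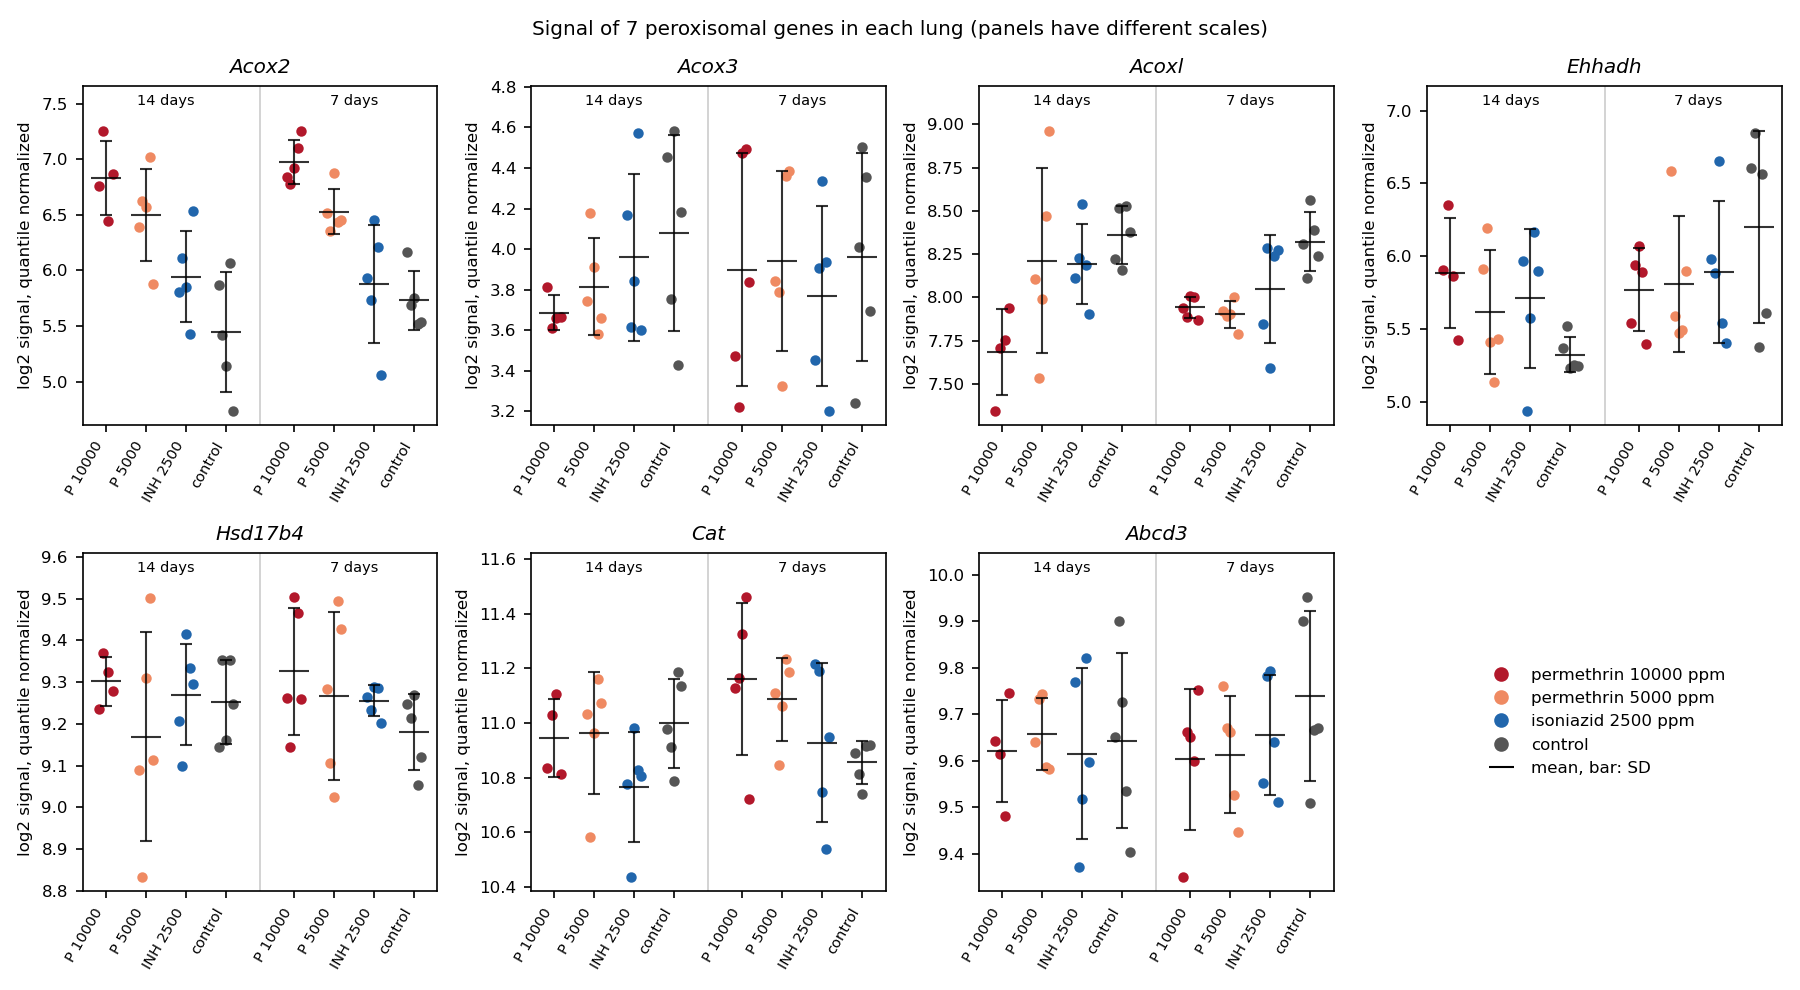
Quantile-normalized log2 signal of each member in each lung, with a panel per gene, 14-day groups on the left and 7-day groups on the right of each panel, P for permethrin, INH for isoniazid and doses in ppm. Points are animals (n = 5, or 4 at permethrin 10000 ppm for 14 days) and bars are mean and SD. Acox2 lies above all controls at 10000 ppm and Acoxl below them, while the other panels show overlapping groups.

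Other tissue and cell markers were measured beside Acox2. Club cells are the secretory cells of the airway. Of 8 club cell markers, 1 passed the threshold at 10000 ppm over both times, Aldh1a1, a retinal dehydrogenase, with a log2 fold change of 0.29 ± 0.04 (adjusted p = 5.61e-06 in limma). Aldh1a1 also passed at 5000 ppm over both times, with 0.24 ± 0.04 (adjusted p = 0.000289 in limma). At 14 days the mean log2 signal of the club cell list was 11.22 to 11.42 at 10000 ppm and 11.08 to 11.29 in controls. The brown fat list ran from 3.86 to 7.14 at 10000 ppm for 14 days and from 3.59 to 4.68 in controls. None of its 6 tested markers passed the threshold in limma, and Ucp1, its defining gene, lay below the filter in the mean. Over both times 2 of the 6 were higher at an unadjusted p under 0.05, beside 6.52% of all tested genes higher or lower. In single lungs of the whole series the Ucp1 signal ran from 0.275 to 434. With liver, cardiac muscle and brown fat signal as covariates the 14-day Acox2 log2 fold change was 1.12 with an adjusted p of 0.0814 in limma, while over both times it was 1.17 with an adjusted p of 8.28e-05.

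Acoxl fell with permethrin 10000 ppm in the mean over both times. The log2 fold change was -0.53 ± 0.12 (SE), a fold of 0.694, with an adjusted p of 0.0225 in limma, where 0.0461% of all tested genes passed as lower. All 9 lungs at 10000 ppm had less Acoxl signal than any of the 10 controls, which held for 0.0154% of tested genes in that direction. At 5000 ppm the log2 difference was -0.28 ± 0.12 and under isoniazid it was -0.22 ± 0.12, and neither passed the threshold.

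At 14 days the Acoxl signal was 163, 209, 216 and 246 at permethrin 10000 ppm, against 299, 366, 286, 369 and 333 in controls, and the groups did not overlap, as for 0.668% of tested genes in that direction. The log2 difference was -0.68 ± 0.17 with an adjusted p of 0.13 in limma, short of the threshold. Lungs at permethrin 5000 ppm for 14 days had 276, 185, 255, 355 and 499, the widest spread of the 8 groups, with its highest 2 values on the 2 arrays of high Gapdh ratio. The log2 difference from control was -0.15 ± 0.16, and it came to -0.42 without the arrays of high Gapdh ratio, -0.34 without replicate 5 and 0.02 without replicate 2 of that group. Isoniazid lungs at 14 days had 277, 300.3, 372, 291 and 239, overlapping the controls, with a log2 difference of -0.17 ± 0.16. The arrays of high Gapdh ratio had the highest and the lowest of these isoniazid values (372 and 239). At 10000 ppm such an array had 216, between others of its group, and those of the controls had 369 and 333.

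At 7 days the Acoxl signal was 246, 237, 258, 256 and 234 at permethrin 10000 ppm, against 317, 276, 378, 335 and 302 in controls. Lungs at permethrin 5000 ppm for 7 days had 242, 237, 239, 256 and 221. Both doses lay below all controls at 7 days, as did 0.184% of tested genes at 10000 ppm and 0.346% at 5000 ppm, with log2 differences of -0.38 ± 0.16 at 10000 ppm and -0.42 ± 0.16 at 5000 ppm (adjusted p = 1 for each in limma). Isoniazid lungs at 7 days had 230.1, 312, 193, 302 and 309.9, with 2 below every control and 3 among them, and a log2 difference of -0.27 ± 0.16.

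Without the 7 arrays of high Gapdh ratio the Acoxl log2 difference over both times was -0.51 at 10000 ppm (adjusted p = 0.00799 in limma) and -0.42 at 5000 ppm (adjusted p = 0.122), and 10000 ppm against 5000 ppm came to -0.09, beside -0.24 ± 0.12 with all arrays. Alveolar type 2 cells make surfactant. None of the 9 type 2 cell markers tested passed the threshold in limma at 10000 ppm over both times. At an unadjusted p under 0.05, 1 was higher, beside 6.52% of all tested genes higher or lower. The mean log2 signal of that list at 14 days was 10.89 to 11.21 at 10000 ppm and 11.06 to 11.31 in controls. The call for Acoxl was lost when any 1 of 4 animals was left out, with adjusted p-values of 0.0926 without permethrin 10000 ppm 14 days replicate 1, 0.0515 without replicate 2 of that group, 0.0534 without control 14 days replicate 2 and 0.0549 without control 7 days replicate 3.

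**Figure D2:**
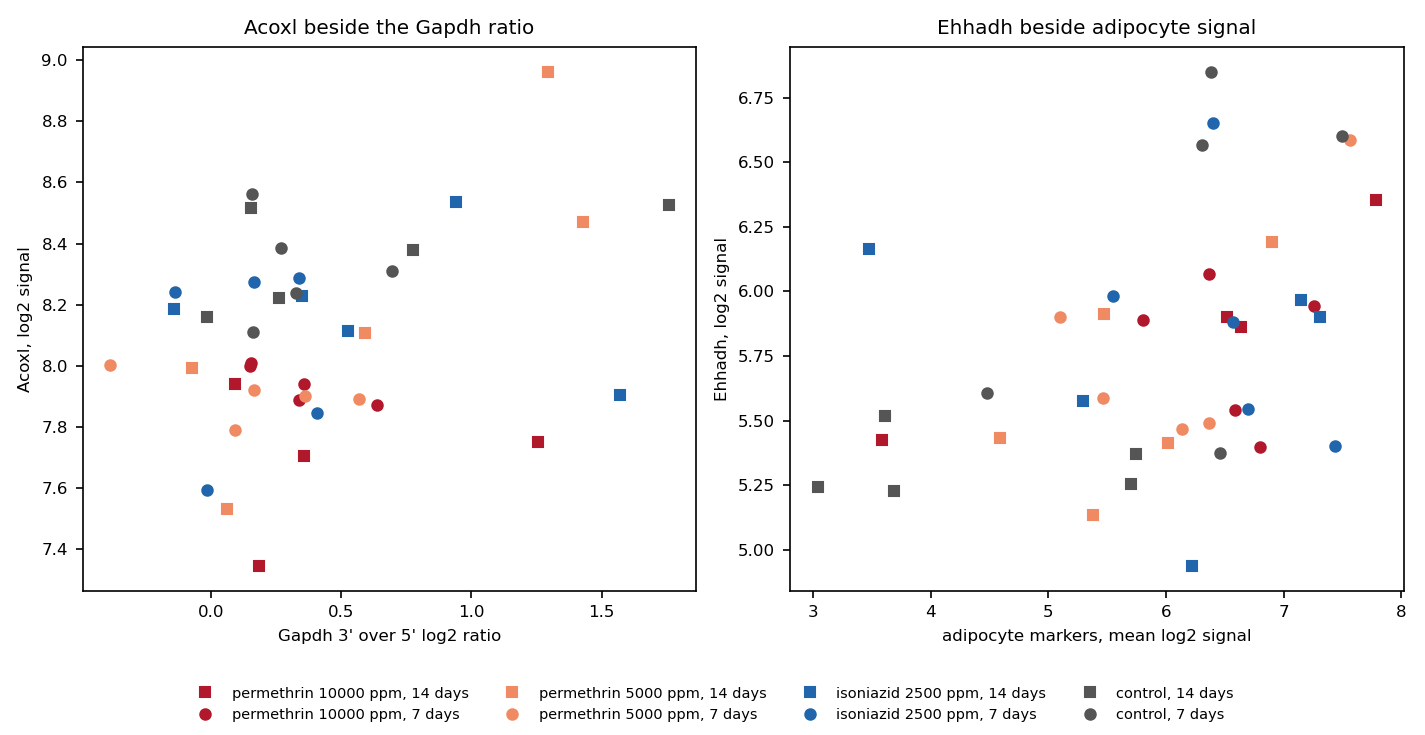
Log2 signal of Acoxl against the Gapdh 3′ over 5′ log2 ratio (left) and of Ehhadh against the mean log2 signal of the adipocyte markers (right). Points are animals, squares 14 days and circles 7 days. The highest Acoxl signal, 499 in a 14-day lung at permethrin 5000 ppm, lies at a ratio of 1.29. A 14-day isoniazid lung at a ratio of 1.57 has 239, the lowest Acoxl signal of its group. The 14-day controls lie at the low end of the Ehhadh axis in the right panel.

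The difference between the Acox2 and the Acoxl change was taken per animal, as a description with no p. It was 1.84 ± 0.24 (SE) on the log2 scale at 10000 ppm over both times, 1.21 ± 0.24 at 5000 ppm and 0.54 ± 0.24 under isoniazid. At 14 days it came to 2.06 ± 0.35 at 10000 ppm and 1.20 ± 0.33 at 5000 ppm, and at 7 days to 1.63 ± 0.33 and 1.22 ± 0.33 at these doses. Single animals at 10000 ppm lay between 1.61 and 2.46 at 14 days and between 1.48 and 1.97 at 7 days. Those at 5000 ppm lay between -0.17 and 2.01 at 14 days and between 1.03 and 1.56 at 7 days. Isoniazid animals lay between 0.15 and 1.54 at 14 days and between -0.63 and 1.45 at 7 days. Controls lay between -0.73 and 0.56 at 14 days and between -0.28 and 0.45 at 7 days. The lack of overlap between 10000 ppm and controls at both times follows from that of each gene given above and is no further result. Over the 39 arrays Pearson's r between the pair was -0.56, and -0.29 after the group means were taken out. The points share the normalization.

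By Pearson's r of log2 signal over the 39 arrays, the 5 tested genes most like Acox2 were Aldh3a1 (an aldehyde dehydrogenase, r = 0.87), Srxn1 (sulfiredoxin, r = 0.86), Txnrd1 (thioredoxin reductase, r = 0.84), Gsta2 (a glutathione transferase, r = 0.84) and Nqo1 (a quinone reductase, r = 0.82). Within groups r was 0.39 to 0.53, and each of the 5 passed the threshold at 10000 ppm with log2 fold changes of 1.40 for Txnrd1, 1.64 for Srxn1, 1.82 for Nqo1, 2.37 for Gsta2 and 2.51 for Aldh3a1. They were picked for likeness on the same arrays, so their change is no separate evidence. The genes most like Acoxl were Slx4ip (r = 0.69), Ubr2 (a ubiquitin ligase, r = 0.68), Zbtb4 (a zinc finger repressor, r = 0.67), Abcg1 (a cholesterol exporter, r = 0.67) and Alcam (an adhesion molecule, r = 0.66). None of these 5 passed the threshold in limma at 10000 ppm over both times, with log2 differences between -0.38 and -0.14. Their r within groups was 0.63 to 0.77, about as high as over all arrays. In the promoter window described above, the antioxidant core matched in 1 of 3 listed promoters of Txnrd1 and in none of those of Srxn1, Gsta2 and Nqo1. Among the genes most like Acoxl the core matched in 2 of 4 listed promoters of Slx4ip. It matched in none of those of Ubr2, Zbtb4 and Alcam. Aldh3a1 and Abcg1 had no listed promoter and were not searched. Bases outside the window were not searched for any gene. The lack of a match therefore does not show that a gene lacks an antioxidant response element.

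Acox3, the oxidase for branched-chain acyl-CoAs such as pristanoyl-CoA, was dim, with signals of 9.21 to 24.0 in single lungs around the filter of 10.8. Its 9 log2 differences from control ran from -0.39 to -0.02 and none passed the threshold in limma. At 10000 ppm over both times the difference was -0.23 ± 0.21, with an interval of -0.64 to 0.19 that holds the value of Acoxl. Its other probe set lay below the filter.

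Ehhadh encodes the L-bifunctional enzyme, the rodent peroxisomal gene best known as a PPAR-alpha target in liver. At 14 days its signal was 59.8, 81.8, 58.1 and 42.9 at permethrin 10000 ppm, against 41.4, 45.8, 37.5, 38.2 and 37.9 in controls, with 3 of 4 above all controls. At 7 days it was 46.6, 61.5, 67.1, 59.3 and 42.1 at 10000 ppm, against 97.2, 115, 41.5, 94.7 and 48.7 in controls, where the controls spread widely and overlapped the treated lungs. The log2 difference was 0.56 ± 0.28 at 14 days (adjusted p = 0.826 in limma) and -0.43 ± 0.27 at 7 days, so its sign differed between times. Over the alternatives it ran from 0.32 to 0.72 at 14 days and from -0.64 to -0.23 at 7 days, with the values nearest 0 from the fit with tissue covariates, and without control replicate 2 the 7-day difference was -0.27.

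The change of the 10000 ppm effect on Ehhadh, 14 minus 7 days, was 0.99 ± 0.39, with an unadjusted p of 0.0151 and an adjusted p near 1 in limma, where no gene passed. It ran from 0.56 (tissue covariates) to 1.20 (without control 7 days replicate 3) over the alternatives. Lungs at permethrin 5000 ppm had an Ehhadh signal of 60.2, 73.1, 42.6, 35.1 and 43.2 at 14 days and 96.1, 48.1, 44.3, 45.0 and 59.7 at 7 days, and isoniazid lungs 62.6, 30.7, 47.7, 71.8 and 59.7 at 14 days and 63.2, 59.0, 101, 46.7 and 42.3 at 7 days, each of these groups overlapping the controls of its time. The same change of sign stood at 5000 ppm (0.29 ± 0.27 at 14 days and -0.39 ± 0.27 at 7 days) and under isoniazid (0.39 ± 0.27 at 14 days and -0.31 ± 0.27 at 7 days), and all of these share the control lungs of their time. The 14-day controls differed from the 7-day controls in Ehhadh by -0.88 ± 0.27, an adjusted p of 0.128 in limma, where 0.115% of genes passed. All 14-day controls lay below the mean of the 7-day controls. The mean log2 signal of the adipocyte markers was 4.35 ± 1.27 (SD, n = 5) in 14-day controls and 6.22 ± 1.09 in 7-day controls, the cardiac muscle list 6.71 and 8.10, and the brown fat list 4.12 and 5.25. In that comparison of controls none of the 4 tested adipocyte markers passed the threshold in limma, and 4 were lower at an unadjusted p under 0.05. Such a p stood for 13.9% of all tested genes there, higher and lower together. Of 13 tested cardiac muscle markers all 13 were lower at an unadjusted p under 0.05 and 1 passed, Myh6, a cardiac myosin heavy chain, which fell by 1.64 ± 0.34 on the log2 scale in 14-day against 7-day controls (adjusted p = 0.0344 in limma). The part of fat and heart tissue in the Ehhadh values was not tested beyond the fit with liver, cardiac muscle and brown fat signal as covariates, where the control difference was -0.59 (adjusted p = 0.268).

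Hsd17b4, the D-bifunctional enzyme that follows Acox2 in the oxidation of bile acid intermediates, varied little, with signals of 456 to 726 in all 39 lungs. Its 9 log2 differences from control ran from -0.08 to 0.15. At 10000 ppm over both times the difference was 0.10 ± 0.07, with an interval of -0.04 to 0.24 that leaves out changes of the size of the Acox2 fold. Its other probe set gave 0.13 ± 0.07. The chosen one carries the platform's x mark, for probes that may also match other transcripts.

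Cat encodes catalase. At 7 days its signal was 2237, 2298, 2569, 2817 and 1691 at permethrin 10000 ppm, against 1897, 1799.9, 1709, 1934 and 1939.6 in controls, with 4 of 5 treated lungs above all controls and replicate 5 below them. The log2 difference was 0.30 ± 0.12 (adjusted p = 1 in limma). At 14 days it was 1830.0, 2089, 2204 and 1798 at 10000 ppm, against 2016, 1929, 1768, 2329 and 2250.4 in controls, with overlap and a difference of -0.05 ± 0.13. The other Cat probe set gave 0.26 ± 0.11 at 14 days and 0.23 ± 0.11 at 7 days, so the probe sets of Cat differed in sign at 14 days. That sign was not stable: the chosen probe set ran from -0.11 to 0.11 at 14 days and turned in 2 of 21 alternatives. Over both times at 10000 ppm the chosen probe set gave 0.13 ± 0.09 and the other 0.24 ± 0.08, each with its SE. Isoniazid lungs at 14 days had 1756, 1386, 2023, 1819.6 and 1791, a difference of -0.23 ± 0.12, with all 5 lungs below the control mean and no call. Before quantile normalization replicate 5, an array of high Gapdh ratio, had 2280, beside 1738 to 2356 in these controls.

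Abcd3, the transporter that brings acyl-CoAs and bile acid intermediates into the peroxisome, had signals of 653 to 990 in single lungs. Its 9 log2 differences from control ran from -0.14 to 0.01. At 10000 ppm over both times it differed by -0.08 ± 0.07, with an interval of -0.22 to 0.06.

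**Figure D3:**
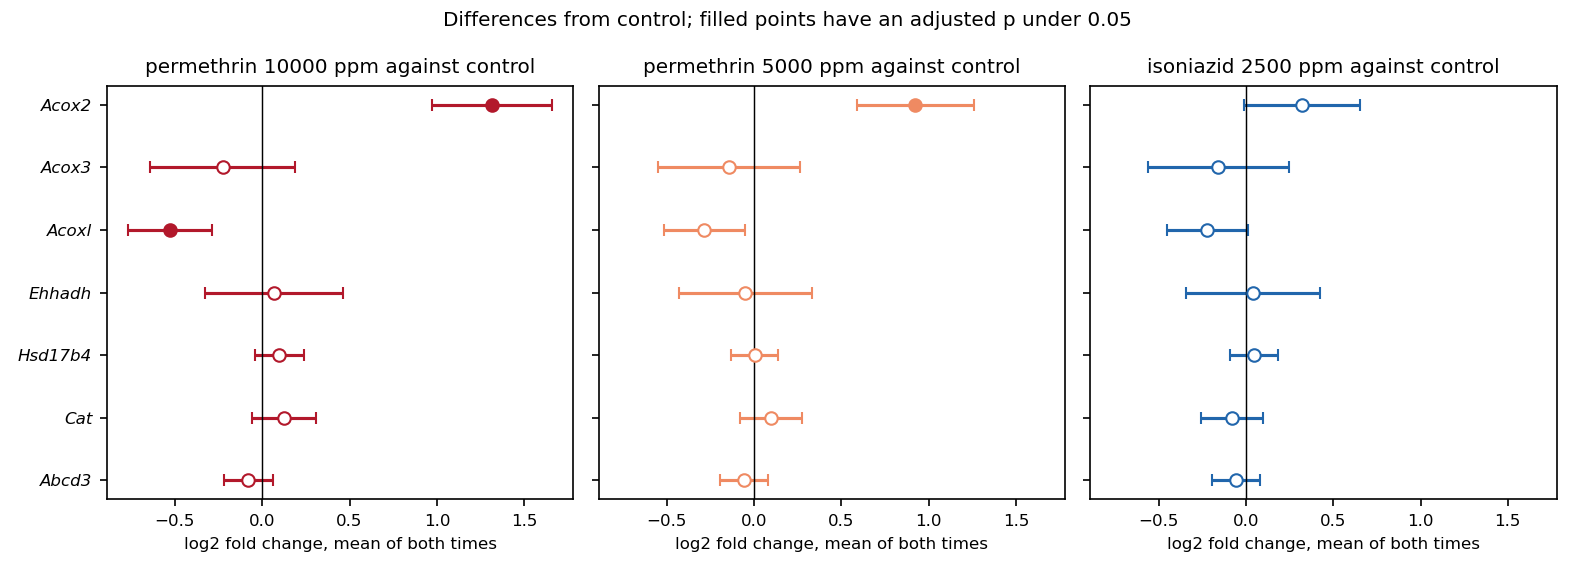
Log2 fold change against control of each member, mean of both times, for permethrin 10000 ppm, permethrin 5000 ppm and isoniazid 2500 ppm. Points are the estimate, bars the 95% interval, and filled points have an adjusted p under 0.05 in limma. Acox2 stands to the right under both permethrin doses (1.32 and 0.92), Acoxl to the left at 10000 ppm (-0.53), and the other intervals, each of the chosen probe set, include 0 except Acoxl at 5000 ppm.

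Of the 7 members, 1 passed as higher and 1 as lower at 10000 ppm over both times, where 0.499% of genes passed. At 5000 ppm 1 passed as higher, where 0.223% of genes passed. Under isoniazid none passed, where 0.392% of genes did, and none had an unadjusted p under 0.05 in limma. The members were chosen with the permethrin results known, so the counts under permethrin are a description. By single time, 1 member passed at 10000 ppm at 14 days (0.215% of genes) and at 7 days (0.238%), 1 at 5000 ppm at 14 days (0.131%), none at 5000 ppm at 7 days (0.0922%), and none under isoniazid at 14 days (0.0307%) or 7 days (0.0461%). The median log2 difference of the 7 members was 0.07 at 10000 ppm, -0.05 at 5000 ppm and -0.06 under isoniazid, beside 0.01, -0.01 and 0.01 over all tested genes.

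Other genes of peroxisomal and mitochondrial fatty acid metabolism gave no call under treatment. Of 122 other genes in 8 lists, 91 were tested and none passed the threshold in limma at 10000 ppm over both times, with 9 higher and 2 lower at an unadjusted p under 0.05. That was 12.1% of the lists beside 6.52% of all tested genes, and the log2 differences ran from -0.39 to 0.56. By list, with none passing, the median log2 difference was 0.03 over 16 other enzymes of peroxisomal beta-oxidation, 0.01 over 11 transporters and acyl-CoA synthetases, 0.17 over 6 other oxidases and peroxide-handling enzymes, 0.06 over 10 enzymes of alpha-oxidation and ether lipid synthesis and 0.10 over 13 peroxins, which build the organelle. It was 0.10 over 21 enzymes of mitochondrial beta-oxidation, 0.01 over 15 PPAR-alpha targets outside the peroxisome and 0.00 over 5 enzymes of bile acid side chain cleavage and conjugation, the pathway in which Acox2 itself works.

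None of the 91 passed at 5000 ppm over both times. At an unadjusted p under 0.05 in limma none were higher and 4 lower, 4.40% beside 3.73% of all tested genes. Under isoniazid none of the 91 passed, with 5 higher and 2 lower, 7.69% beside 9.14%. At 14 days alone, 14 were higher at 10000 ppm at an unadjusted p under 0.05, 15.4% of the lists beside 6.04% of all genes, and none passed the threshold. Adipocyte markers at that time ran from 3.58 to 7.78 at 10000 ppm and from 3.04 to 5.74 in controls. The cardiac muscle list ran from 6.53 to 8.97 at 10000 ppm and from 5.56 to 7.61 in controls. For the brown fat list the ranges were 3.86 to 7.14 and 3.59 to 4.68. The part of these tissues in the values of the lists was not tested. The 1 gene of these 8 lists past the threshold in any of the 15 comparisons was Lpl, lipoprotein lipase, which fell by 0.84 ± 0.15 on the log2 scale in 14-day against 7-day controls (adjusted p = 0.0307).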

How the data were processed

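The deposited values are signal intensity on a linear scale, 1 per probe set and array, computed by the authors with MAS5 per the submitters' processing notes (version not given in the sources used here). Per the labels' protocols, RNA came from stabilized lung tissue, and cRNA carrying biotin was made with a 3′ in vitro transcription kit. Probe summary and background were the authors' work and could not be varied.

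All 39 arrays (45101 probe sets) were log2 transformed with no pseudocount and quantile normalized, which removes a change shared by most genes. Of the probe sets, 34945 carry 1 symbol, 932 several and 9160 none. Genes were tested where their probe set of highest mean lay in the upper 60% (mean log2 signal of at least 3.43), leaving 13020. A model with 8 group means and 15 comparisons was fitted in R 4.3.3 with limma 3.58.1 (eBayes with trend, two-sided, Benjamini-Hochberg adjustment, threshold 0.05), with data handling in package data.table, version 1.17.8, and was tested on simulated data. The number of arrays limits the precision. Replicate numbers were not used as pairs: same-numbered lungs deviated together with a mean r of 0.03 (-0.34 to 0.37). The text names all members, the 5 genes most correlated with Acox2 and with Acoxl, and pathway or marker list genes past the threshold. The members and lists were chosen with earlier results of these data known. Alternatives were other scalings, a pseudocount of 16, other filters, all probe sets tested, fits of the compared groups alone, a replicate block, array weights, no trend, tissue covariates, arrays of high Gapdh ratio left out and each animal left out.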

Additional observations from a re-analysis of the deposited data

How the results depend on the processing

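Across 12 other settings and 39 animals left out in turn, Acox2 kept its calls at 10000 ppm for 7 days (log2 fold change 1.04 to 1.36), at 10000 ppm over both times (1.07 to 1.39), at 5000 ppm over both times (0.74 to 1.02) and against isoniazid (0.83 to 1.14). At 10000 ppm for 14 days it lost its call with only the compared groups in the fit (1.39, adjusted p = 0.154) and with tissue covariates (1.12, adjusted p = 0.0814). At 5000 ppm for 14 days it lost its call under 16 of 22 alternatives: deposited scaling (1.02), arrays centred on their median (1.03), no filter, all probe sets tested, the compared groups alone, the replicate block and eBayes without trend (1.05 each, adjusted p = 0.0649 with the replicate block), arrays of high Gapdh ratio left out (1.05), tissue covariates (0.83), and 7 animals left out singly (range 0.87 to 1.21 over all left-out animals), which were control replicates 2, 3 and 5 and permethrin 5000 ppm replicates 1 to 4. Acoxl at 10000 ppm over both times lost its call only with single animals left out (-0.57 to -0.47). The replicate block changed no other call of a member. Of 98 member comparisons short of the threshold, 3 passed under an alternative, array weights in each: Acox2 at 5000 ppm for 7 days (adjusted p = 0.0231), Acoxl at 10000 ppm for 14 days (0.0125) and Ehhadh in 14-day against 7-day controls (0.0384). In 106 of their 2630 alternatives the sign turned, always for a value past the threshold in neither fit. The cause of these changes was not tested.

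Numbers of genes past the threshold moved more. For permethrin 10000 ppm over both times, 65 genes became 129 with array weights and 41 to 74 without 1 animal; against isoniazid, 46 became 77 with every probe set tested, and against 5000 ppm, 1 became 3 (array weights), 2 (every probe set), 0 (compared groups), 4 (high Gapdh ratio left out) and 1 to 4 (1 animal left out). For 10000 ppm at 14 days, 28 became 71 (array weights), 46 (every probe set), 17 (covariates), 9 (compared groups) and 17 to 48 (1 animal left out), and at 7 days 31 became 20 (median centring) and 47 (every probe set). For 5000 ppm over both times, 29 became 18 (median centring) and 48 (every probe set). For 5000 ppm at 14 days, 17 became 8 (median centring), 26 (every probe set), 4 (covariates), 10 (compared groups), 10 (high Gapdh ratio left out) and 8 to 16 (1 animal left out), and at 7 days 12 became 25 (array weights) and 21 (every probe set). For isoniazid over both times, 51 became 18 (median centring), 17 (covariates), 25 (compared groups), 19 (high Gapdh ratio left out) and 27 to 63 (1 animal left out). For isoniazid at 14 days, 4 became 2 (array weights), 1 (compared groups), 7 (replicate block), 2 (high Gapdh ratio left out) and 1 to 6 (1 animal left out). For isoniazid at 7 days, 6 became 72 (array weights), 2 (median centring), 3 (deposited scaling), 3 (covariates), 3 (compared groups), 14 (high Gapdh ratio left out) and 1 to 22 (1 animal left out). For 14-day against 7-day controls, 15 became 278 (array weights), 0 (median centring, every probe set and compared groups), 60 (covariates), 74 (replicate block), 4 (high Gapdh ratio left out) and 0 to 92 (1 animal left out). The changes of the permethrin 5000 ppm and isoniazid effects with time passed for 0 to 1 gene without 1 animal.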

Other observations

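The 7 members differed in how much they varied between animals of a group. The SD within groups, on the log2 scale, was 0.15 for Hsd17b4 and Abcd3, 0.20 for Cat, 0.27 for Acoxl, 0.38 for Acox2, 0.43 for Acox3 and 0.44 for Ehhadh, beside a median of 0.26 over all tested genes. Ehhadh and Abcd3 varied together within groups (r = 0.54 over 39 arrays, 0.52 before the group means were taken out), as did Hsd17b4 and Cat (r = 0.52, and 0.49 before), while Acoxl and Ehhadh varied in opposite directions (r = -0.46, and -0.38 before), as a description of arrays that share scaling. In none of the 56 sets of values (7 genes in 8 groups) did a single animal stand apart by Dixon's criterion.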
